A study of Rattus norvegicus with 8 samples.

Results

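Fast and slow cells of C6SPGFP, a set of cells of the rat glioma line C6, were compared on 4 of the 8 oligonucleotide arrays of the series, chosen by their titles: 2 arrays of C6SPGFP slow cells and 2 of C6SPGFP fast cells. The other 4 arrays held slow and fast cells titled C6, 2 of each, and served here to estimate the spread and to show where C6SPGFP differed. All 8 samples were total RNA of the same glioma line, and the only description in the labels was migration. The labels give no treatment, time or passage, do not say what C6SPGFP stands for or whether it is 1 clone, and do not say how fast and slow cells were separated. Whether the arrays of a group came from different cultures is not said either, so p-values measure the spread between these samples, which may be technical, and 2 arrays a group limit the precision of every value.

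C6 is an established line from a rat brain tumour, with traits of astroglia and of glial progenitors, and it is widely used to study how glioma cells invade. A migrating cell extends its front by polymerising actin, grips the surrounding matrix through integrins, syndecans and other receptors, loosens that matrix with proteases, and releases its rear. Water and ion channels change its volume, and secreted factors such as chemokines, growth factors and their binding proteins act on it and its neighbours. The comparison asks which transcripts differ between fast and slow cells of this set.

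The values are probe set signals on a linear scale. C6SPGFP fast replicate 1 was deposited on a scale about 5 times that of the others, with a 2% trimmed mean of 500.5 against 100.1 on each of the other 3 C6SPGFP arrays, so all 8 arrays were quantile normalised to a common scale. Across the 6684 probe sets tested (genes, not replicates), Pearson's r of log2(signal + 8) was 0.977 between the slow arrays, 0.978 between the fast arrays and 0.960 to 0.971 between slow and fast ones. Differences of more than 2-fold were found on 211 probe sets between the slow arrays and 202 between the fast arrays. Between slow and fast arrays they were found on 290 to 394, and slow replicate 1 lay closer to both fast arrays (290 and 342) than slow replicate 2 did (394 and 389). Both C6 fast arrays lay furthest from the rest, with r of 0.899 to 0.939 to arrays of other groups, and a fit without them called 83 probe sets in C6SPGFP where all 8 arrays gave 93. The 3'/5' control ratios of these 4 arrays, a measure of RNA integrity, were 0.967 to 0.996 for Gapdh, 1.05 to 1.12 for beta-actin and 1.49 to 1.72 for hexokinase.

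The glial identity of the cells was looked at first. Vimentin (Vim), an intermediate filament abundant in this line, had signals of 3256 and 3102 on the slow arrays and 3602 and 3831 on the fast arrays. The calcium-binding glial protein S100b had 1221 and 1230.0 on the slow arrays and 1275 and 1247 on the fast arrays on its brighter probe set. Neither passed the test, with limma adjusted p-values of 0.506 and 0.965, and Gfap had no probe set with a name of its own. Of the microglial and haematopoietic markers 15 were on the array and 7 were bright enough to be tested. None was called by limma, and 0 had an unadjusted p under 0.05. Spn, a mucin best known from leukocytes that was called higher in fast cells (below), was not in this list. Their summed signal was 451 and 443 on the slow and 398 and 360 on the fast arrays. A large part of it came from 1 member, Cd14, with a mean of 258 over the 4 arrays. Of 13 endothelial and mural markers 11 were tested, again with 0 calls and 0 unadjusted p-values under 0.05. The summed signal of these markers was 726 and 654 on the slow and 716 and 768 on the fast arrays, with Acta2 the brightest (mean 184). In such bulk RNA, fewer cells of a type and less RNA per cell cannot be told apart.

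In all, 93 of 6684 probe sets (1.39%) passed the test between fast and slow C6SPGFP cells at a Benjamini-Hochberg adjusted p under 0.05 (limma), and an unadjusted p under 0.05 was reached by 648 (9.69%). Higher in fast cells were 71 (1.06%) and lower 22 (0.329%). They covered 72 named genes, 53 higher and 19 lower, and 14 probe sets with several gene names or none. The signals of fast and slow arrays did not overlap for any of the 72 genes, as for 20.9% of all probe sets in the higher and 23.2% in the lower direction. Called changes of more than 2-fold numbered 64 probe sets higher (0.958%) and 18 lower (0.269%), among them 61 of the 72 genes. Increases of more than 8-fold were found on 9 called probe sets, 8 of them of named genes, and 1 decrease was as large. Folds and log2 changes are those of signal plus a pseudocount of 8. For 16 of the 53 genes that rose, both slow arrays lay under 8, where the size of a change depends on the pseudocount, and for 3 of the 19 that fell both fast arrays did. The signal filter took the mean of all 8 arrays. Among others that rose, Sncg, Gnrhr, Ass1, Asgr1, Mapt, Casp1 and Timp1 therefore entered the test only through their fast C6SPGFP signals. The called genes are described by role, in groups formed after their values were seen, so the counts within a group say nothing of its uncalled members.

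**Figure D1:**
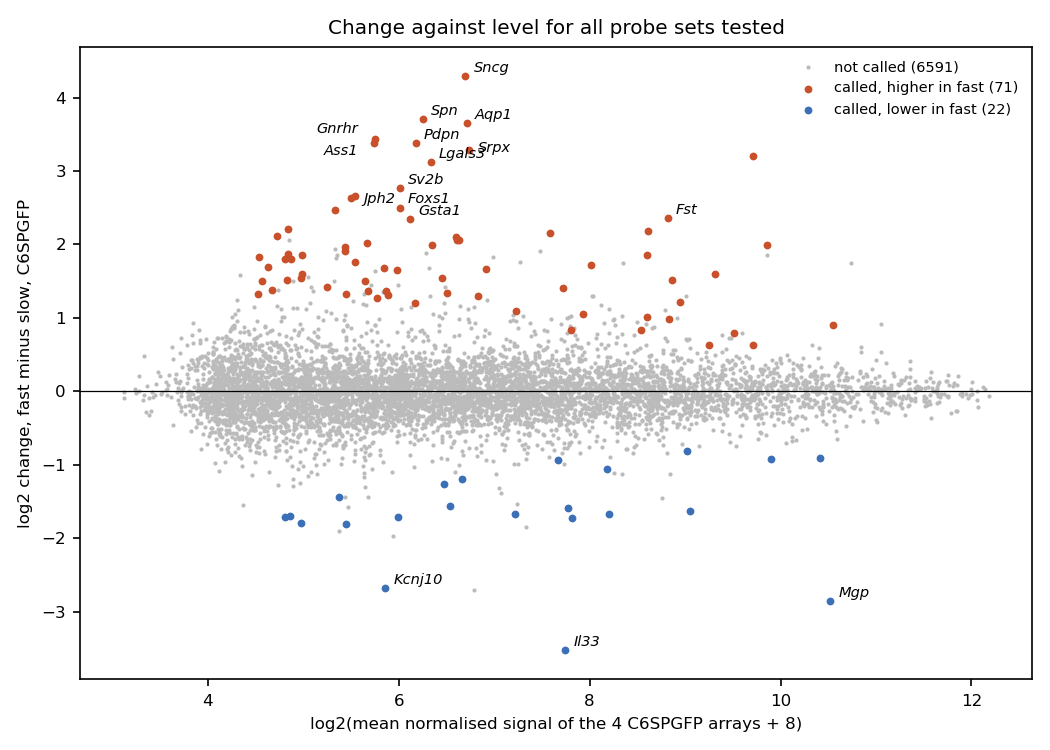
Each point is 1 of the 6684 probe sets tested, with its mean level in the 4 C6SPGFP arrays on the x axis (log2 of normalised signal + 8) and its log2 change, fast minus slow, on the y axis. The 71 probe sets called higher (red) and the 22 called lower (blue) include both dim and bright ones, the largest changes being those of Sncg (4.30) and Il33 (-3.53).

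How far the calls rest on single arrays differed between genes. Most of the 72 genes kept their call in no fit without 1 C6SPGFP array. Such a fit also called probe sets outside the 93, so its count is not a count of calls kept. It normalised the remaining arrays again, with the same signal filter and pseudocount. Without fast replicate 1, the array deposited on the larger scale, the common scale was therefore lower. That fit tested 6086 probe sets, where the fits without another C6SPGFP array tested 6747 to 6758. Its lower count and missing tests may thus come partly from the rescaling rather than from dependence on that array. The count of 93 fell to 71 without slow replicate 1, to 25 without slow replicate 2, to 36 without fast replicate 1 and to 21 without fast replicate 2, each a fit with 1 array on 1 side, which is then assumed to vary like the other groups. In all 4 of these fits 14 genes kept their call. They were Sncg, Spn, Gnrhr, Ass1, Pdpn, Srpx, Lgals3, Sv2b, Fst, Gsta1, Ccl2 and Penk, which rose, and Il33 and Basp1, which fell. On the deposited scale, where the array with the larger values moved the median change of all probe sets to 1.04, 15 probe sets passed, all higher, against 71 higher and 22 lower here. Under 3 other common scalings (trimmed mean, cyclic loess, quantiles of the C6SPGFP arrays alone) 55 of the 72 genes kept their call in all, 11 in 2, Cnp and Psme1 in 1, and Sdc1, Idh2, Rhox5 and progranulin (Grn) in none.

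**Figure D2:**
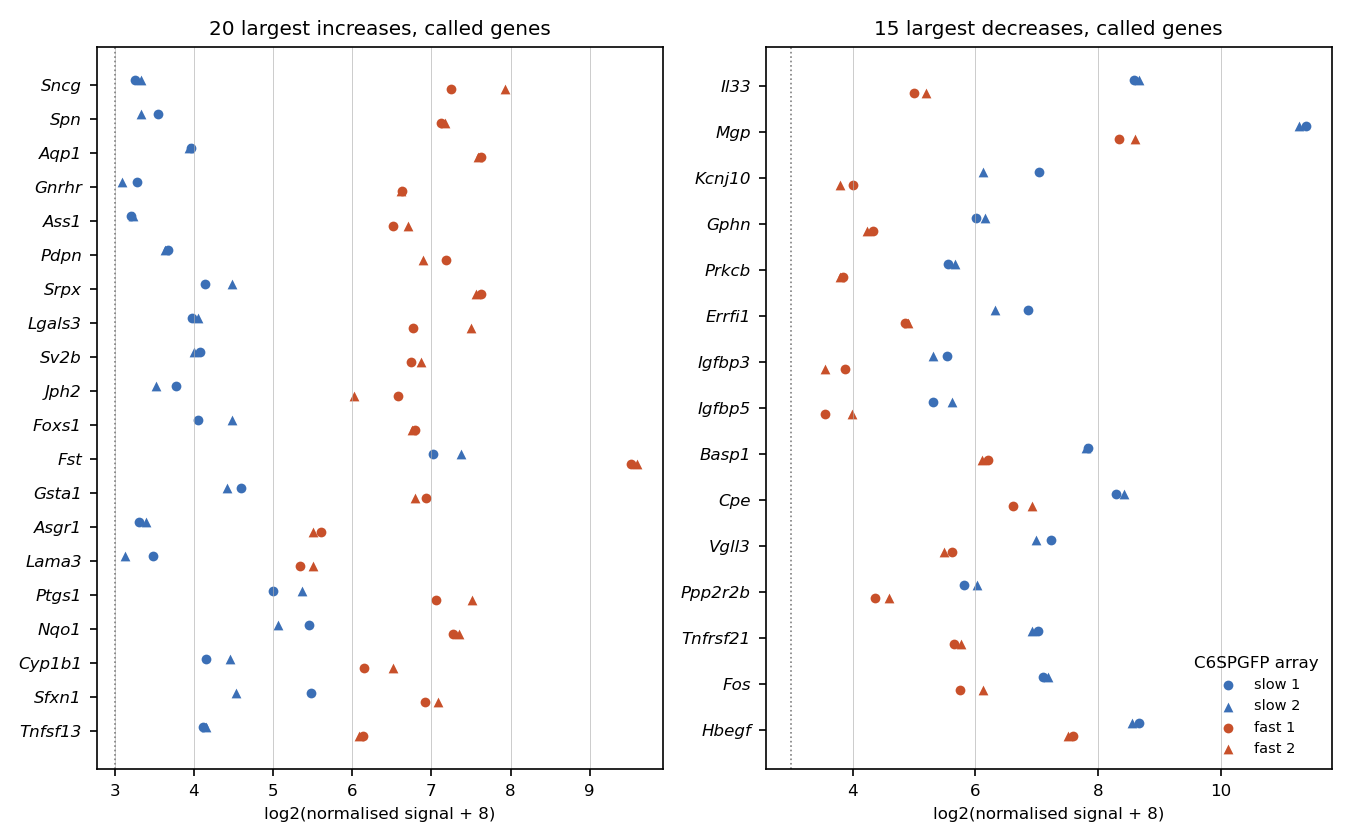
Normalised signal plus 8 on a log2 scale for the 20 called genes with the largest increase (left) and the 15 with the largest decrease (right), 1 point per C6SPGFP array, slow in blue and fast in red, replicate 1 as circles and replicate 2 as triangles. The dotted line marks a signal of 0. Slow and fast points do not overlap for any of these genes, and replicates lie furthest apart for Sfxn1 on the slow arrays (36.8 and 15.1) and for Lgals3 on the fast arrays (101 and 174).

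Proteins of the cell surface were among the largest increases. Of the 6 called genes of this kind 5 rose and 1 fell. Spn, also known as CD43, a heavily sialylated mucin best known from leukocytes, had signals of 3.66 and 2.05 on the slow arrays and 131 and 136 on the fast arrays, a 13.1-fold rise (log2 change 3.71 ± 0.20, here and below ± SE, limma adjusted p = 0.000255). Podoplanin (Pdpn), a small membrane mucin that binds the ezrin family of actin linkers, had 4.81 and 4.47 on the slow arrays and 137 and 111 on the fast arrays (log2 change 3.38 ± 0.36, adjusted p = 0.00315). Both went from signals of a few units on the slow arrays to over 100 on both fast ones.

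Galectin 3 (Lgals3), a lectin that binds galactose-bearing glycans at the surface and in the matrix, rose from 7.72 and 8.6 to 101 and 174 (log2 change 3.12 ± 0.33, adjusted p = 0.00312). Its fast arrays differed more from each other than its slow ones. Asgr1, the receptor by which liver cells clear glycoproteins that lost their sialic acid, was listed at 1.86 and 2.5 on the slow arrays and 40.6 and 37.4 on the fast arrays (log2 change 2.21 ± 0.28). Syndecan 1 (Sdc1), a heparan sulfate proteoglycan that works as a matrix receptor, rose by less, from 236 and 281 to 467 and 467 (log2 change 0.84 ± 0.16, adjusted p = 0.0452). The neural cell adhesion molecule Ncam1, which joins like cells to each other, fell from 659 and 644 to 386 and 352 (log2 change -0.81 ± 0.14, adjusted p = 0.0296). The calls of Spn, Pdpn and Lgals3 held in each of the 4 fits without 1 C6SPGFP array. Of the other 3 surface genes, 2 ended without slow replicate 1 (adjusted p from 0.183 to 0.263), 3 without slow replicate 2 (adjusted p from 0.0713 to 0.233), 2 without fast replicate 1 (adjusted p from 0.12 to 0.222) and 3 without fast replicate 2 (adjusted p from 0.0799 to 0.268). Asgr1 without fast replicate 1 fell below the signal filter and had no test.

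Of 9 called genes grouped with the matrix 8 rose and 1 fell, where 53 of all 72 called genes rose. The 8 count Medag, a gene linked to fat cell differentiation rather than to the matrix. Srpx, a secreted protein with sushi repeats, rose from 9.66 and 14.3 to 189 and 182, 9.75-fold (log2 change 3.28 ± 0.21, adjusted p = 0.000316). The laminin chain Lama3, part of the basement membrane laminin that epithelia anchor to, had signals of 3.23 and 0.738 on the slow arrays and 32.7 and 37.4 on the fast arrays (log2 change 2.12 ± 0.26). Fibronectin (Fn1), the matrix glycoprotein that integrins bind, was already bright and rose from 1088 and 985 to 1797 and 2100.1 (log2 change 0.90 ± 0.12, adjusted p = 0.00996). Its slow and fast arrays were separated by more than the gap within either pair.

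Among the collagens, the fibrillar Col3a1 rose from 3.35 and 5.26 to 40.0 and 34.0 and the basement membrane zone collagen Col15a1 from 26.9 and 15.2 to 68.7 and 61.8, with log2 changes of 1.87 and 1.36. A brighter Col3a1 probe set had 43.6 and 32.1 on the slow arrays and 85.3 and 59.6 on the fast arrays and did not pass (log2 change 0.80 ± 0.26, adjusted p = 0.285). Mmp16, a matrix metalloproteinase held in the membrane, rose from 23.3 and 25.2 to 64.6 and 87.8 (log2 change 1.37 ± 0.23). Timp1, an inhibitor of metalloproteinases, rose on a dim probe set from 2.45 and 1.91 to 31.2 and 25.5 (log2 change 1.83 ± 0.25), while its brighter one had 80.2 and 91.7 on the slow arrays and 125 and 141 on the fast arrays, a change of 0.59 ± 0.22 that did not pass (adjusted p = 0.386). Medag, a protein linked to fat cell differentiation, rose from 4.81 and 5.1 to 33.2 and 41.5 (log2 change 1.80 ± 0.25). The single decrease among these called genes was that of a bright one. Matrix Gla protein (Mgp), which binds bone morphogenetic proteins and keeps tissue from calcifying, fell from 2681 and 2475 to 318 and 382, 7.25-fold (log2 change -2.86 ± 0.36, adjusted p = 0.00721). The Srpx call held in each of the 4 fits without 1 C6SPGFP array. Of the other 8 matrix genes, 3 ended without slow replicate 1 (adjusted p from 0.0576 to 0.145), 8 without slow replicate 2 (adjusted p from 0.0741 to 0.276), 4 without fast replicate 1 (adjusted p from 0.0642 to 0.196) and 7 without fast replicate 2 (adjusted p from 0.0718 to 0.236). Col3a1 and Timp1 without fast replicate 1, on the lower common scale of that fit, and Timp1 without fast replicate 2 fell below the signal filter. They had no test there.

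Of 8 called genes of growth factor signalling 4 rose and 4 fell. Follistatin (Fst), which binds activins and keeps them from their receptors, rose from 122 and 157 to 724 and 768 (log2 change 2.36 ± 0.16, adjusted p = 0.000316), and its second probe set rose from 128 and 139 to 634 and 636. Bone morphogenetic protein 7 (Bmp7) rose from 42.3 and 44.2 to 135 and 109 (log2 change 1.34 ± 0.22), and Ltbp1, which holds latent TGF-beta in the matrix, rose from 278 and 320.0 to 577 and 622 (log2 change 0.99 ± 0.16). Progranulin (Grn), a secreted growth factor, rose from 577 and 479.6 to 949 and 879.9 (log2 change 0.79 ± 0.14, adjusted p = 0.0378).

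The 4 that fell act on insulin-like and epidermal growth factor signalling. The binding proteins Igfbp3 and Igfbp5, which hold insulin-like growth factors and set their access to the receptor, fell from 38.5 and 31.5 to 6.72 and 3.71 and from 31.8 and 41.2 to 3.67 and 7.89, with log2 changes of -1.71 and -1.70. All 4 fast values lay under 8, so the size of their fall is limited by the pseudocount. Hbegf, a membrane-anchored ligand of the epidermal growth factor receptor, fell from 398 and 369 to 185 and 174 (log2 change -1.06 ± 0.17, adjusted p = 0.0227). Errfi1, a feedback inhibitor of the same receptor, fell from 108 and 71.9 to 20.9 and 21.9 (log2 change -1.71 ± 0.30), while its brighter probe set had 145 and 163 on the slow arrays and 89.0 and 137 on the fast arrays and did not pass (log2 change -0.45 ± 0.23, adjusted p = 0.575). The Fst call held in each of the 4 fits without 1 C6SPGFP array. Of the other 7 growth factor genes, 6 ended without slow replicate 1 (adjusted p from 0.0721 to 0.195), 7 without slow replicate 2 (adjusted p from 0.105 to 0.299), 7 without fast replicate 1 (adjusted p from 0.0958 to 0.224) and 7 without fast replicate 2 (adjusted p from 0.0619 to 0.203).

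Of 8 called genes known from neurons and synapses 5 rose and 3 fell, and they included the largest increase of all. Gamma-synuclein (Sncg), a small soluble protein of neurons, had signals of 1.52 and 2.05 on the slow arrays and 144 and 236 on the fast arrays (log2 change 4.30 ± 0.28, adjusted p = 0.000316), the fast arrays differing by less than the step from slow to fast. Sv2b, a membrane protein of synaptic vesicles, rose from 8.84 and 8.07 to 99.4 and 109 (log2 change 2.77 ± 0.25, adjusted p = 0.00135). Proenkephalin (Penk), the precursor of the enkephalin opioid peptides, rose from 221 and 244 to 655 and 710.5 (log2 change 1.52 ± 0.15, adjusted p = 0.00196). Tau (Mapt), which binds microtubules, rose on a dim probe set from 4.92 and 3.85 to 29.7 and 41.4, while its brighter ones gave log2 changes of 0.53 and 0.10 that did not pass (adjusted p = 0.753 and 0.93). Ankyrin 3 (Ank3), which anchors membrane proteins at the start of the axon, rose on a dim probe set from 5.96 and 4.17 to 20.9 and 29.0. None of its 4 others passed, and the brightest had 77.8 and 70.7 on the slow arrays and 101 and 69.6 on the fast arrays, with overlapping groups (log2 change 0.17 ± 0.26, adjusted p = 0.897).

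Other called neuronal genes were lower in the fast samples. Basp1, a membrane-bound protein of growth cones, fell from 220.2 and 216 to 65.6 and 61.0 (log2 change -1.67 ± 0.16, adjusted p = 0.00184). Gephyrin (Gphn), the scaffold of inhibitory synapses, fell from 56.5 and 63.5 to 12.1 and 10.9 (log2 change -1.80 ± 0.23, adjusted p = 0.00857). Carboxypeptidase E (Cpe), which trims neuropeptide precursors, fell from 304 and 336 to 89.7 and 113 (log2 change -1.59 ± 0.23), so that a peptide precursor and a processing enzyme changed in opposite directions. The calls of Sncg, Sv2b, Penk and Basp1 held in each of the 4 fits without 1 C6SPGFP array. Of the other 4 neuronal genes, 3 ended without slow replicate 1 (adjusted p from 0.0506 to 0.0949), 4 without slow replicate 2 (adjusted p from 0.105 to 0.233), 3 without fast replicate 1 (adjusted p from 0.0642 to 0.106) and 3 without fast replicate 2 (adjusted p from 0.0821 to 0.237). Mapt without fast replicate 1, on the lower common scale of that fit, and Mapt without fast replicate 2 fell below the signal filter and had no test. Just outside the threshold of adjusted p lay Gap43, a growth cone protein (21.8 and 26.9 on the slow arrays and 77.5 and 70.7 on the fast arrays, log2 change 1.35 ± 0.27, adjusted p = 0.0536), and the medium neurofilament chain Nefm (16.9 and 28.9 on the slow arrays and 2.33 and 2.36 on the fast arrays, log2 change -1.55 ± 0.31, adjusted p = 0.0545).

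Among genes of water and ion movement, the water channel Aqp1, which lets water follow osmotic gradients, had signals of 7.56 and 7.4 on the slow arrays and 189 and 184 on the fast arrays, a 12.6-fold rise (log2 change 3.65 ± 0.43, adjusted p = 0.0054). Fxyd1, a small partner of the sodium-potassium pump, rose from 5.64 and 5.41 to 33.1 and 50.7 (log2 change 1.86 ± 0.27), and its brighter probe set gave 0.80 ± 0.19 (adjusted p = 0.128). Junctophilin 2 (Jph2), which ties the plasma membrane to the calcium store in muscle, rose from 5.64 and 3.5 to 87.5 and 57.2 (log2 change 2.66 ± 0.35). Kcnj10, the potassium channel that astrocytes use to take up potassium, fell from 124 and 62.0 to 8.05 and 5.92 (log2 change -2.68 ± 0.32, adjusted p = 0.00545), its slow arrays lying far apart. Its second probe set had 58.6 and 48.9 on the slow arrays and 27.2 and 28.4 on the fast arrays, a change of -0.78 ± 0.34 (adjusted p = 0.511). None of the 4 calls of transport genes held in all 4 fits without 1 C6SPGFP array. Of them, 1 ended without slow replicate 1 (adjusted p of 0.0677), 3 without slow replicate 2 (adjusted p from 0.0613 to 0.114), 1 without fast replicate 1 (adjusted p of 0.0736) and 4 without fast replicate 2 (adjusted p from 0.0619 to 0.148). Fxyd1 without fast replicate 1 fell below the signal filter on the lower common scale of that fit and had no test.

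Of 10 called genes of cytokine signalling and immunity 8 rose and 2 fell. The cytokine Il33, which is stored in the nucleus and acts as an alarm signal when cells are damaged, fell from 375 and 399 to 24.1 and 28.4, 11.5-fold (log2 change -3.53 ± 0.25, adjusted p = 0.000316). Ccl2, the chemokine that draws monocytes, rose from 149.7 and 170.4 to 634 and 564 (log2 change 1.85 ± 0.17, adjusted p = 0.00156) and on its second probe set from 292 and 318 to 817 and 1079. Il18 and caspase 1 (Casp1), the protease that activates it, rose from 25.1 and 26.8 to 72.2 and 79.9 and from 3.5 and 4.0 to 29.7 and 29.9, with log2 changes of 1.31 and 1.69. A further Il18 probe set passed too, with a log2 change of 1.27, while the 2 further Casp1 probe sets did not, at 0.95 and 1.59 (adjusted p = 0.449 and 0.213).

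The cyclooxygenase Ptgs1, which starts prostaglandin synthesis, rose from 24.0 and 33.1 to 125 and 174 (log2 change 2.10 ± 0.34), and C1s, a protease of the complement cascade, from 52.0 and 47.6 to 157 and 195 (log2 change 1.66 ± 0.25). Subunits of the proteasome form that makes peptides for antigen presentation rose by less. Psmb9, a catalytic one, rose from 76.0 and 101 to 196 and 196 (log2 change 1.09 ± 0.19, adjusted p = 0.0303), and Psme1, of the activator cap, from 636 and 665 to 981 and 1034 (log2 change 0.62 ± 0.11, adjusted p = 0.0378). The TNF family ligand Tnfsf13 rose from 9.38 and 9.82 to 62.3 and 59.8 on one probe set, but the other, brighter one had 179.9 and 175 on the slow arrays and 123 and 141 on the fast arrays, a change of -0.41 ± 0.20 in the opposite direction that did not pass (adjusted p = 0.571). Tnfrsf21, a death receptor of the same superfamily, fell from 122 and 113 to 42.1 and 46.4 (log2 change -1.27 ± 0.21), while its brighter probe set had 445 and 331 on the slow arrays and 255 and 257 on the fast arrays and did not pass (log2 change -0.57 ± 0.24, adjusted p = 0.501). The calls of Ccl2 and Il33 held in each of the 4 fits without 1 C6SPGFP array. Of the other 8 immune genes, 8 ended without slow replicate 1 (adjusted p from 0.063 to 0.227), 8 without slow replicate 2 (adjusted p from 0.105 to 0.233), 7 without fast replicate 1 (adjusted p from 0.0639 to 0.167) and 7 without fast replicate 2 (adjusted p from 0.113 to 0.268). Casp1 without fast replicate 1 and Casp1 without fast replicate 2 fell below the signal filter and had no test.

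Of 10 called genes of detoxification and metabolism 9 rose and 1 fell. Ass1, which makes argininosuccinate in the urea cycle and in arginine synthesis, had signals of 1.25 and 1.43 on the slow arrays and 83.1 and 96.2 on the fast arrays (log2 change 3.38 ± 0.24, adjusted p = 0.000316). The quinone reductase Nqo1, a standard target of the antioxidant response, rose on both of its probe sets. The brighter one went from 355 and 356 to 1131 and 1845 (log2 change 2.0 ± 0.22, adjusted p = 0.00401). The dimmer one went from 35.7 and 25.3 to 147 and 155 (log2 change 2.06 ± 0.37, adjusted p = 0.0333). For Nqo1 the fits without 1 C6SPGFP array were read from the dimmer probe set only. The glutathione transferase Gsta1 rose from 16.2 and 13.5 to 114 and 103 (log2 change 2.35 ± 0.23, adjusted p = 0.00196) on a probe set of the kind made for several members of a gene family, so other alpha-class transferases may share its signal.

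Nqo1 is a textbook case of a gene with antioxidant response elements, so the 4 called detoxification genes (Nqo1, Gsta1, Gstk1 and Cyp1b1) were searched for the core TGACNNNGC of that element on both strands in the 250 bases before the RefSeq start (assembly GRCr8). None of the 4 held it in that window, as against 10.1% of all 33469 promoters, which says only that these letters are not in this window. The Nqo1 stretch, at chr19:52220268-52220517 on the minus strand, is shown as an example, with TATAAA in capitals. That motif, searched on the sense strand after the sequence had been seen, stood in 8.06% of all promoters.
Nqo1: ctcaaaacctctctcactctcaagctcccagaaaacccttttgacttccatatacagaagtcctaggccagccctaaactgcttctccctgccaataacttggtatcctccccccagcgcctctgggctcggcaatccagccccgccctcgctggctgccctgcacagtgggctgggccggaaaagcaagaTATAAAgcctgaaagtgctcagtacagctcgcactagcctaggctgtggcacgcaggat

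Of the other metabolic genes, Cyp1b1, a cytochrome that oxidises steroids and aromatic pollutants, rose from 9.84 and 14 to 63.0 and 83.8 (log2 change 2.03 ± 0.39, adjusted p = 0.0489), and Cyp26b1, which breaks down retinoic acid, from 19.9 and 16.5 to 73.9 and 58.5 (log2 change 1.5 ± 0.23). The mitochondrial glutathione transferase Gstk1 rose from 8.25 and 6.96 to 46.5 and 32.7, while its brighter probe set gave 115 and 172 on the slow arrays and 58.6 and 307 on the fast arrays, the fast arrays lying on either side of the slow ones (log2 change -0.04 ± 0.59, adjusted p = 0.995). Sfxn1, the mitochondrial carrier of serine, rose from 36.8 and 15.1 to 113 and 128 (log2 change 1.99 ± 0.33), and the mitochondrial isocitrate dehydrogenase Idh2 from 455 and 481 to 756 and 705 (log2 change 0.63 ± 0.12, adjusted p = 0.0468). Eno3, the muscle form of the glycolytic enzyme enolase, rose from 4.41 and 17.2 to 47.3 and 72.1 (log2 change 1.91 ± 0.34). Lipa, the lysosomal lipase that frees cholesterol from its esters, fell from 1742 and 1797 to 1053 and 837 (log2 change -0.91 ± 0.15, adjusted p = 0.0227). The calls of Ass1 and Gsta1 held in each of the 4 fits without 1 C6SPGFP array. Of the other 8 metabolic genes, 7 ended without slow replicate 1 (adjusted p from 0.0733 to 0.254), 7 without slow replicate 2 (adjusted p from 0.147 to 0.268), 7 without fast replicate 1 (adjusted p from 0.0736 to 0.267) and 8 without fast replicate 2 (adjusted p from 0.11 to 0.308).

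Transcription factors and cofactors made up 8 of the called genes, 6 higher and 2 lower. Foxs1, a forkhead factor of neural crest derivatives, rose from 8.66 and 14.3 to 103 and 100.2 (log2 change 2.50 ± 0.27, adjusted p = 0.00333). Srebf1, the master factor of fatty acid synthesis, rose from 13.0 and 13.3 to 57.4 and 71.2 (log2 change 1.77 ± 0.27, adjusted p = 0.0179). Maf, a basic leucine zipper factor, rose on 2 probe sets, from 23.1 and 21.4 to 73.7 and 103 and from 4.09 and 4.64 to 26.8 and 26.9. The retinoid X receptor Rxrg rose from 43.1 and 31.1 to 119.7 and 126 (log2 change 1.55 ± 0.21).

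Klf4, a zinc finger factor that slows the cell cycle in epithelia, rose from 232 and 268 to 487 and 535 (log2 change 1.01 ± 0.15, adjusted p = 0.0179). The homeobox gene Rhox5 rose from 149 and 157 to 281 and 276 (log2 change 0.83 ± 0.16, adjusted p = 0.0414), while its other, dimmer probe set gave -0.20 ± 0.22 (adjusted p = 0.853). On the lower side, Vgll3, a cofactor of TEAD factors, fell from 143 and 119.6 to 40.9 and 37.0 (log2 change -1.56 ± 0.22), and the immediate early gene Fos fell from 129.7 and 137 to 46.0 and 62.0 (log2 change -1.20 ± 0.22, adjusted p = 0.0347). None of the 8 calls of transcription factor genes held in all 4 fits without 1 C6SPGFP array. Of them, 6 ended without slow replicate 1 (adjusted p from 0.0917 to 0.232), 7 without slow replicate 2 (adjusted p from 0.0982 to 0.272), 7 without fast replicate 1 (adjusted p from 0.0642 to 0.224) and 8 without fast replicate 2 (adjusted p from 0.0534 to 0.263).

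The remaining 9 called genes belong to signalling, protein quality control and the cytoskeleton. Gnrhr, the receptor of gonadotropin-releasing hormone, was listed at 1.69 and 0.55 on the slow arrays and 91.3 and 89.8 on the fast arrays (log2 change 3.44 ± 0.24, adjusted p = 0.000316), and 1 of its 2 further probe sets passed too, with a log2 change of 1.42 ± 0.26. The orphan receptor Mrgprf rose from 18.2 and 15.7 to 54.7 and 54.3, the tyrosine kinase Frk from 4.81 and 8.81 to 32.6 and 35.8, the ubiquitin ligase subunit Fbxo2 from 107 and 107 to 338 and 262 and the small heat shock protein Hspb6 from 40.2 and 31.4 to 94.5 and 90.5. Their log2 changes were 1.33, 1.52, 1.41 and 1.20.

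Decreases in this group were found for a kinase, a phosphatase subunit, an actin bundler and a myelin enzyme. Prkcb, the beta form of protein kinase C, fell from 38.9 and 42.7 to 6.33 and 5.92 (log2 change -1.79 ± 0.25, adjusted p = 0.0113), and its other probe sets gave -0.16 and -1.02, which did not pass (adjusted p = 0.878 and 0.398). Ppp2r2b, a regulatory subunit of protein phosphatase 2A, fell from 48.2 and 57.0 to 12.7 and 16.1 (log2 change -1.44 ± 0.23). Plastin 3 (Pls3), which bundles actin filaments, fell from 263 and 255 to 127 and 135 (log2 change -0.94 ± 0.15, adjusted p = 0.0236). Cnp, an enzyme of myelinating glia, fell from 1199 and 1292 to 647 and 655 (log2 change -0.93 ± 0.18, adjusted p = 0.0453). The Gnrhr call held in each of the 4 fits without 1 C6SPGFP array. Of the other 8 signalling genes, 8 ended without slow replicate 1 (adjusted p from 0.053 to 0.227), 8 without slow replicate 2 (adjusted p from 0.114 to 0.348), 8 without fast replicate 1 (adjusted p from 0.0736 to 0.217) and 8 without fast replicate 2 (adjusted p from 0.0619 to 0.268).

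Where a called gene had further probe sets, they mostly pointed the same way. Of 72 genes 37 had such probe sets, 53 in all, of which 50 had the same sign and 7 were called. The 7 belonged to Asgr1, Ccl2, Fst, Gnrhr, Il18, Maf and Nqo1. The 4 further probe sets of Fn1 had log2 changes between 0.38 and 1.02 and the 3 of Cyp1b1 between 0.38 and 2.06, none of which passed. The 3 with the opposite sign were those of Tnfsf13, Gstk1 and Rhox5 given above. The probe set described for each gene was the called one with the largest change. For 5 genes (Cyp1b1, Fn1, Fos, Lipa and Ncam1) a further probe set changed by more without being called. For 18 genes a brighter probe set was not called. Those not given above were of Fos (-0.61), Grn (0.63), Gsta1 (1.05), Hspb6 (0.58), Igfbp5 (-0.94), Klf4 (0.87) and Psme1 (0.45), with log2 changes in brackets.

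The gene lists were described by their counts beside those of all 3878 genes tested with 1 probe set each, the brightest. Of these 41 (14 in the other direction) were called higher in fast cells, 1.42% in both directions together, and their median log2 change was -0.03. Changes were positive for 1807 and negative for 2071. An unadjusted p under 0.05 (limma) was reached by 397 of the 3878. A list takes the brightest probe set of each gene, so a gene called on another probe set does not count in it. The lists were written with earlier results of these data known, and 56 of the 72 called genes are in a list. Their shares of called genes may partly reflect that choice and are not independent of these data.

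Cell surface and matrix lists held the highest shares of called genes. Of 35 membrane mucins and adhesion genes 4 rose (Spn, Pdpn, Lgals3 and Sdc1) and 1 fell (Ncam1), 14.3% called, with a median of 0.03. Among 27 extracellular matrix genes 3 rose (Srpx, Lama3 and Fn1) and 1 fell (Mgp), 14.8% called, while 11 had a positive and 16 a negative change and the median was -0.06. In the activin, BMP and TGF-beta list of 30 genes 3 rose (Fst, Bmp7 and Ltbp1) and 1 fell (Mgp), 13.3% called, with a median of -0.04. Among its uncalled members were the BMP target Id3, with 379 and 386 on the slow arrays and 661 and 599 on the fast arrays (log2 change 0.71 ± 0.14, adjusted p = 0.0511), and its relative Id1, with 163 and 193 on the slow arrays and 394 and 399 on the fast arrays (log2 change 1.12 ± 0.38, adjusted p = 0.317) on one probe set and 0.02 ± 0.18 on the other. The medians of these 3 lists lay within 0.1 of that of all genes. Of 36 actin and contractility genes 1 was called (Jph2), and of 34 proteases and inhibitors 1 rose (Mmp16) and 1 fell (Cpe). The actin bundler Pls3 (called lower), the protease C1s and the collagen Col15a1 (both called higher) were not in the actin, protease and matrix lists. By limma, an unadjusted p under 0.05 was reached by 11 of the 34 proteases and inhibitors and 8 of the 36 actin genes. It was reached by 9 of 27 matrix, 8 of 35 mucin and adhesion and 6 of 30 activin, BMP and TGF-beta genes. Below the threshold, elastin (Eln) had 60.0 and 65.0 on the slow arrays and 237 and 224 on the fast arrays (log2 change 1.76 ± 0.46, adjusted p = 0.167) and the plasminogen activator Plat 15.9 and 9.52 on the slow arrays and 33.0 and 40.3 on the fast arrays (log2 change 1.12 ± 0.28, adjusted p = 0.136).

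Oxidative stress and detoxification genes and proliferation genes had the highest medians. Of 49 detoxification genes 2 rose (Nqo1 and Cyp1b1), 4.08% called, and 35 had a positive change, with a median of 0.24. By limma, 10 of the 49 had an unadjusted p under 0.05. The extracellular superoxide dismutase Sod3 had 1501 and 354 on the slow arrays and 2572 and 2376 on the fast arrays (log2 change 1.75 ± 0.53, adjusted p = 0.252), its slow arrays far apart. The glutathione peroxidase Gpx1 had 300.2 and 281 on the slow arrays and 719 and 727 on the fast arrays (log2 change 1.29 ± 0.33, adjusted p = 0.158). Of 36 proliferation genes none was called by limma, 7 had an unadjusted p under 0.05, and 31 had a positive change, with a median of 0.23. The cyclin Ccnd2 had 70.6 and 66.7 on the slow arrays and 143 and 120.5 on the fast arrays (log2 change 0.86 ± 0.26, adjusted p = 0.249), and Tyms, which makes thymidylate for DNA synthesis, 58.1 and 43.6 on the slow arrays and 87.0 and 94.2 on the fast arrays (log2 change 0.75 ± 0.21, adjusted p = 0.199). Relative to the median of all genes, the detoxification median stayed between 0.211 and 0.273 and the proliferation median between 0.18 and 0.273 in the 4 fits without 1 C6SPGFP array.

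Glial lists went in different directions. Of 16 oligodendroglial and Schwann genes 2 fell (Cnp and Ncam1), 12.5% called, 12 had a negative change and the median was -0.35, the lowest of the lists. Ncam1 was also counted among the adhesion genes, and Cnp kept its call in 1 of the 3 other common scalings. Their summed signal was 8249 and 8176 on the slow and 6251 and 5429 on the fast arrays, with Pmp22 the brightest member (mean 2047). Sox10, the lineage factor of these cells, had 531 and 571 on the slow arrays and 433 and 411 on the fast arrays and did not pass (log2 change -0.38 ± 0.22, adjusted p = 0.635). Of 16 astroglial genes 1 fell (Kcnj10), 11 had a positive change, and the median was 0.12. The neuronal list of 34 genes held 2 increases (Sncg and Sv2b) and 2 decreases (Gphn and Basp1), 11.8% called, with a median of -0.15. Of 9 fibroblast genes 1 rose (Fn1), and their summed signal was 7639 and 7103 on the slow and 8435 and 8600 on the fast arrays. A large part of that sum came from 1 member, S100a4, with a mean of 3612. By limma, 6 of the 16 astroglial and 4 of the 16 oligodendroglial and Schwann genes had an unadjusted p under 0.05. So did 9 of the 34 neuronal and 3 of the 9 fibroblast genes. The part of other cell types in these results was not tested.

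Other lists held few calls or none. By limma, none of 37 cytosolic ribosomal protein genes, 33 oxidative phosphorylation genes, 29 heat shock genes and 18 glycolysis genes was called, with medians of 0.00, -0.10, 0.12 and -0.08 and with 2, 3, 2 and 0 unadjusted p-values under 0.05. The heat shock list held Hspb6, which was called on its dimmer probe set. The glycolysis list did not hold the enolase Eno3, which was called higher. In the interferon and antigen presentation list 1 of 33 rose (Psmb9), with 18 positive and 15 negative changes and a median of 0.00. Its uncalled members with the largest changes were Gbp2 (18.5 and 26.0 on the slow arrays and 59.3 and 61.6 on the fast arrays, adjusted p = 0.11) and Tap2 (79.4 and 109 on the slow arrays and 175 and 204 on the fast arrays, adjusted p = 0.205). Secretion and signalling lists were mixed. Of 30 chemokines, cytokines and receptors 2 rose (Ccl2 and Il18) and 1 fell (Il33), of 26 neuropeptides and processing enzymes 1 rose (Penk) and 1 fell (Cpe), and of 38 water and ion transport genes 1 rose (Aqp1) and 1 fell (Kcnj10). Single decreases were found among 14 genes of the insulin-like growth factor axis (Igfbp3), 47 growth factors and receptors (Hbegf), 44 genes of protein kinase C, cAMP and phosphatase signalling (Ppp2r2b) and 22 lysosomal genes (Lipa). Changes were positive for 17 and negative for 13 in the cytokine list, for 7 and 7 in the insulin-like growth factor axis and for 26 and 21 among growth factors and receptors. Single increases were found among 18 genes of prostaglandin synthesis (Ptgs1), 26 of amino acid synthesis (Ass1), 18 growth inhibitors and 28 immediate early genes (Klf4 in both). Fos, also an immediate early gene, was called lower on a dimmer probe set, which does not count there. Of 27 sterol and fatty acid genes 1 rose (Srebf1) and 1 fell (Lipa), and of 28 genes of the tricarboxylic acid cycle and mitochondrial carriers 2 rose (Sfxn1 and Idh2). Of 49 developmental transcription factors 3 rose (Foxs1, Maf and Rhox5) and 1 fell (Vgll3). The medians of these 14 lists lay between -0.16 and 0.07. Of 50 G-protein-coupled receptors and regulators of G-protein signalling 1 was called (Gnrhr). Rgs4, a regulator of G-protein signalling, lay below the signal filter with 3.23 and 3.0 on the slow and 2.80 and 1.60 on the fast arrays, and Rgs3 had no probe set with a name of its own.

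**Figure D3:**
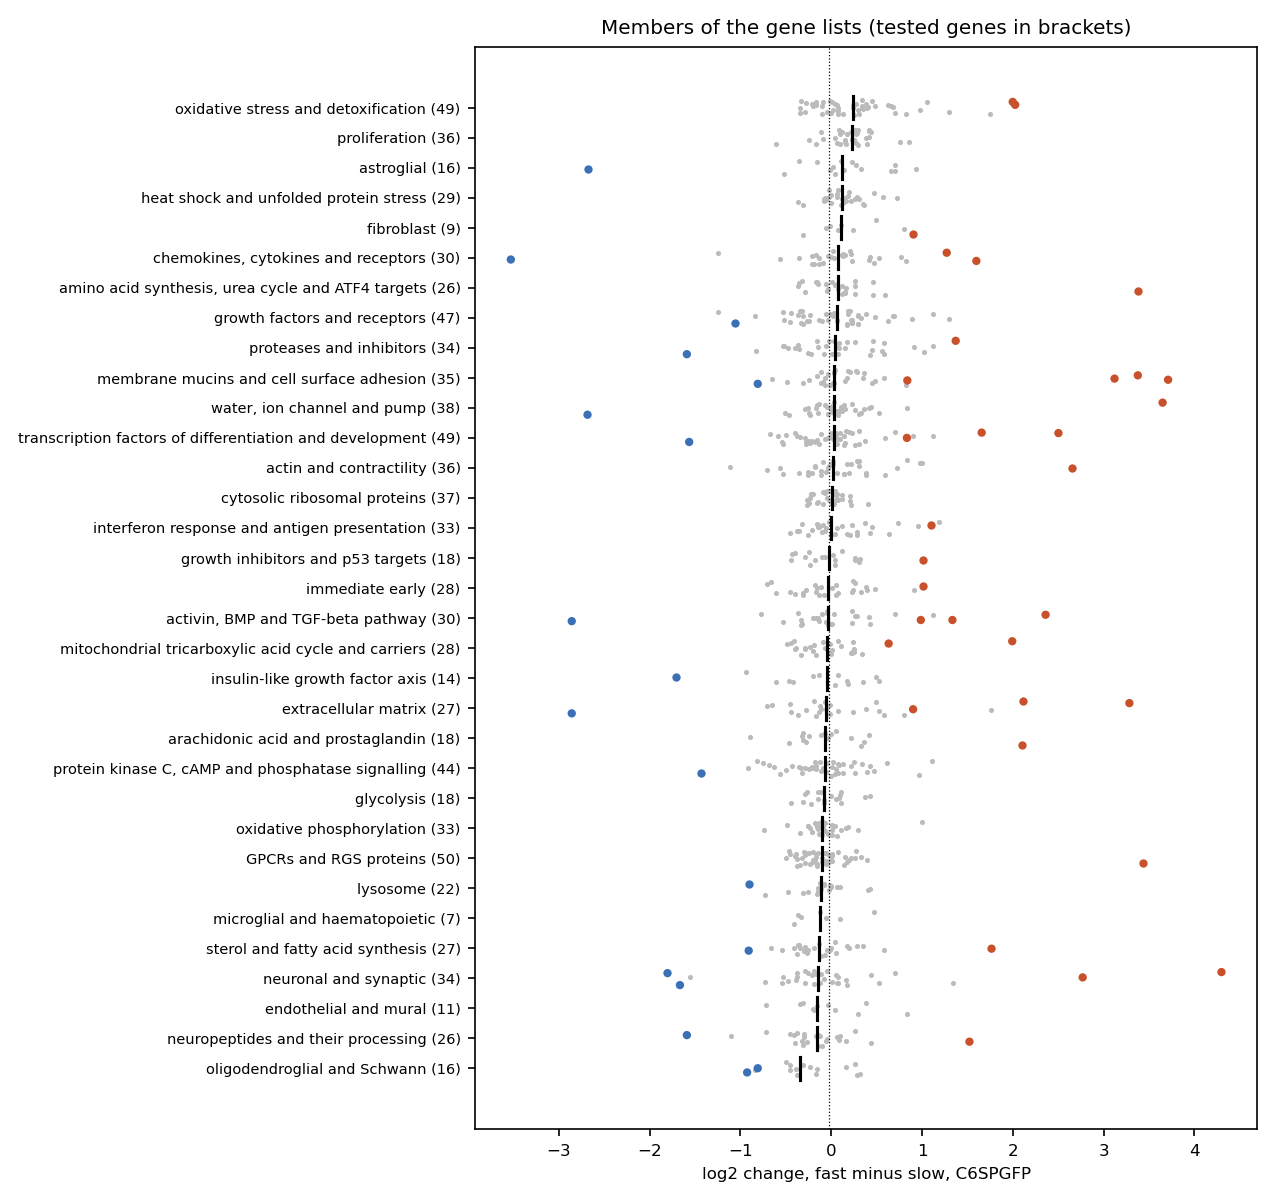
Log2 change, fast minus slow, of each tested member of the 33 gene lists, 1 probe set per gene, with called members in red (higher) and blue (lower), the list median as a black bar and the median of all genes as a dotted line. Most lists are centred near the dotted line with a few members far out, while the oligodendroglial and Schwann list lies lowest (median -0.35) and the oxidative stress and detoxification list highest (0.24).

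The change in C6SPGFP was set against that in C6, which shares no array with it, by testing the difference of the 2 changes. Of the 72 genes 39 differed (limma adjusted p under 0.05), against 255 of all 6684 probe sets (3.82%). Since the genes were chosen for their change in C6SPGFP, a difference from another set is favoured by that choice. All 39 kept the sign of the difference with pseudocounts of 1 and 32, and 32 and 38 of them stayed called, without Lama3, Col3a1, Timp1, Mapt, Prkcb, Rxrg and Tnfrsf21 at 1 and without Spn at 32. In C6, 16 of the 72 were called in the same direction, 10 in the opposite one and 46 not at all, where 6.66% of all probe sets were called. The 10 with opposite calls were Ccl2, Rhox5, Fst, Bmp7, Mmp16 and Cyp1b1, higher in fast C6SPGFP and lower in fast C6 cells, and Il33, Cpe, Basp1 and Ppp2r2b, the reverse.

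Ccl2 differed most. In C6 its signals were 1888 and 1753 on the slow and 45.6 and 58.5 on the fast arrays, a change of -4.93 ± 0.17, so that it differed by 6.79 ± 0.24 between the sets (adjusted p = 3.64e-06). Il33 went from 22.2 and 11.2 to 47.1 and 42.9 in C6 (log2 change 1.14 ± 0.25), a difference of -4.67 ± 0.35 (adjusted p = 0.00021). Follistatin fell in fast C6 cells from 1292 and 1301 to 350.2 and 413, a difference of 4.11 ± 0.23 (adjusted p = 5.66e-05). Bmp7 went from 76.0 and 99.6 to 4.53 and 4.0 in C6, a difference of 4.29 ± 0.31 (adjusted p = 0.000167).

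Several of the largest increases in C6SPGFP were near 0 in C6. Sncg, Gnrhr and Ass1 passed the signal filter only through their fast C6SPGFP arrays. Sncg was listed at 2.17 and 2.41 on the slow and 2.23 and 1.96 on the fast C6 arrays, Gnrhr at 0.912 and 2.17 and at 0.75 and 0.9, and Ass1 at 1.25 and 2.29 and at 1.11 and 1.06. Their changes differed between the sets by 4.33 ± 0.39, 3.55 ± 0.34 and 3.49 ± 0.34 (adjusted p = 0.000541, 0.000755 and 0.000769). Podoplanin was lower on both fast C6 arrays (5.08 and 14.8) than on the slow ones (45.9 and 21.2), which was not called (adjusted p = 0.0945), and its change differed by 4.58 ± 0.51 (adjusted p = 0.00146).

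Changes of other genes were not shown to differ, among them some of the largest increases. Srpx rose in C6 from 7.54 and 9.65 on the slow arrays to 278 and 341 on the fast arrays (log2 change 4.25 ± 0.21). Its difference was -0.97 ± 0.30 (limma adjusted p = 0.156). For Aqp1, which was not called in C6, the difference was 2.28 ± 0.60 (adjusted p = 0.0913). For Penk, called higher in C6 too, it was 0.39 ± 0.21 (adjusted p = 0.448). Galectin 3 changed by 3.39 ± 0.33 in C6, a difference of -0.27 ± 0.47 (adjusted p = 0.841). For Maf the difference was -0.21 ± 0.37, for Medag 0.22 ± 0.35, for Vgll3 0.04 ± 0.31, for Igfbp5 0.28 ± 0.35 and for Hspb6 0.08 ± 0.29, with adjusted p-values from 0.775 to 0.973. Spn and Lama3 were called in the same direction in both sets, with differences of 1.47 ± 0.28 (adjusted p = 0.0263) and -1.78 ± 0.37 (adjusted p = 0.0355) that depend on the pseudocount. For Lama3, whose slow C6SPGFP signals were near 0, the ratio of fast to slow mean signals was 17.7 in C6SPGFP and 20.8 in C6, and with a pseudocount of 1 the difference was -0.55 (adjusted p = 0.739). For Spn these ratios were 46.9 and 6.35, and with a pseudocount of 32 the difference was 0.69 (adjusted p = 0.092). Cnp fell in both, by less in C6SPGFP (difference 1.31 ± 0.25, adjusted p = 0.0243).

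Some of the strongest differences between the sets belonged to genes that were not called in C6SPGFP. The beta-tubulin Tubb2b had 3357 and 3515 on the slow arrays and 2796 and 2535 on the fast arrays (log2 change -0.37 ± 0.12), the TGF-beta signalling inhibitor Pmepa1 3640.0 and 3357 on the slow arrays and 3287 and 3416 on the fast arrays (-0.06 ± 0.12) and the kinase Aatk 825 and 776 on the slow arrays and 781 and 806 on the fast arrays (-0.01 ± 0.15), while in C6 their log2 changes were -5.37, -4.48 and -4.63. The sodium-potassium pump subunit Atp1b1, which rose by 5.18 in C6, had signals of 1.06 and 0.35 on the slow arrays and 0.675 and 0.65 on the fast arrays in C6SPGFP on that probe set. A brighter one had 45.3 and 58.6 on the slow arrays and 54.6 and 69.4 on the fast arrays (log2 change 0.22 ± 0.22) and rose by 4.36 in C6. The phospholipase Pla2g4a, which frees arachidonic acid from membranes and rose by 4.81 in C6, had 8.38 and 16 on the slow arrays and 11.3 and 5.31 on the fast arrays in C6SPGFP. None of these 5 was called there, with adjusted p-values from 0.293 to 0.999.

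**Figure D4:**
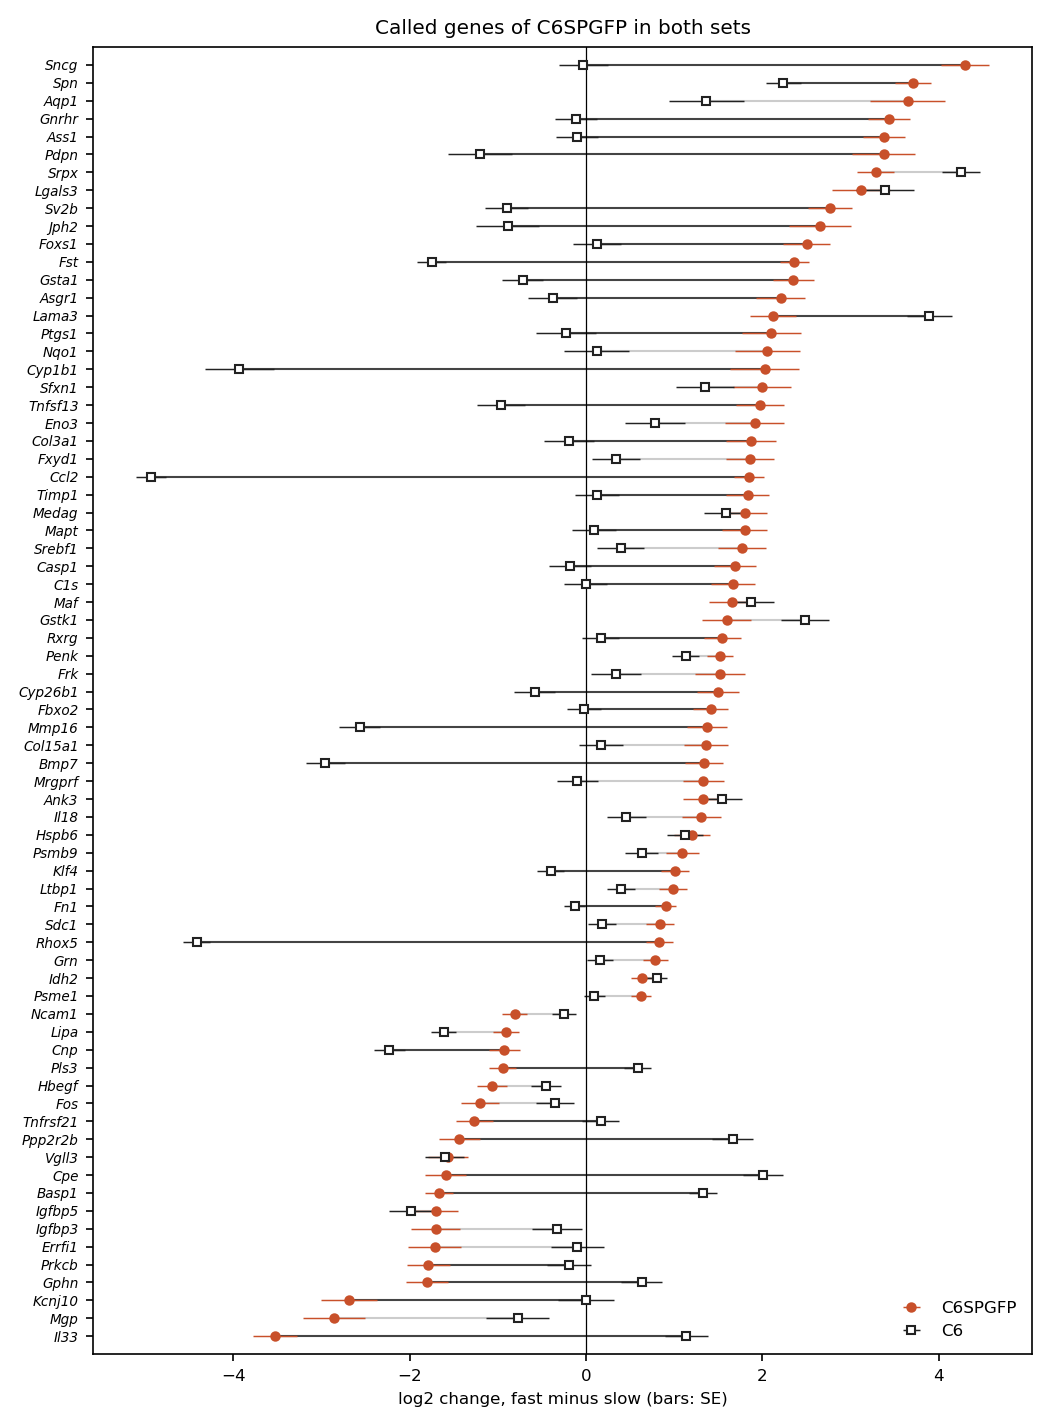
Log2 change, fast minus slow, with its SE, of the 72 genes called in C6SPGFP, in C6SPGFP (red circles) and in C6 (open squares), with 2 arrays on each side. A dark line joins the 2 values where their difference passed the test (39 genes) and a pale line where it did not. The longest lines are those of Ccl2 and Cyp1b1, whose C6 values lie far below 0.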

How the data were processed

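Total RNA of fast and slow cells of C6 and C6SPGFP was measured on Affymetrix rat arrays of 8799 probe sets, 1 array per sample and 2 per group. The authors deposited 1 linear intensity per probe set and array, and no source used here names the software. That deposited intensity on 7 arrays had a 2% trimmed mean between 100.1 and 105.8 and that of C6SPGFP fast replicate 1 a trimmed mean of 500.5, as computed here. All 8 arrays were therefore quantile normalised together.

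Values were taken as log2(signal + 8). After 59 control probe sets were left out, 6684 probe sets whose normalised signal averaged 8 or more entered the test and 2056 did not. The 4 groups were fitted together with limma 3.58.1 in R 4.3.3 (lmFit, eBayes with a trend, two-sided, Benjamini-Hochberg adjustment over all probe sets tested), which left 4 residual and 4.49 prior degrees of freedom. The median SE was 0.241 for a log2 change in C6SPGFP and 0.341 for its difference from C6. A probe set or gene is called at an adjusted p under 0.05. An exact permutation test of 2 arrays against 2 could reach no p under 0.333, so none was used. The fit was tested on simulated data with known changes.

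Probe sets were named from the platform annotation: 7018 had 1 symbol, 308 several and 1473 none, and 6994 of the 7018 symbols were updated through RefSeq's gene table. For a gene with several called probe sets, that with the largest change was described. The naming rule gave values by array for the 20 largest increases, the 15 largest decreases and up to 4 called members per direction of each list. Values of the other called genes were added, and of uncalled list members at most 3 with the largest changes and 2 with the highest signals were named, besides a fixed set of glial genes, Rgs3, Rgs4 and the 8 smallest p-values in each direction for the difference from C6. For gene lists the brightest probe set of each gene was used. The cells, the 33 lists and the named-gene rule were chosen with earlier results of these data known, and the grouping of the called genes by role and the TATAAA search after their values were seen. Alternatives covered the scaling, the pseudocount, the signal filter, the moderation, the arrays in the fit, a replicate block and leaving out each array. With an array left out, the remaining arrays were normalised again and the signal filter and pseudocount were kept.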

Additional observations from a re-analysis of the deposited data

Results flagged for a closer look

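In 255 of 6684 probe sets the change from slow to fast cells differed between C6SPGFP and C6 by the test of that difference (limma, adjusted p under 0.05), and 39 of the 72 genes called in C6SPGFP were among them. The values below are log2 changes in C6SPGFP minus those in C6, and a negative value means a lower change in C6SPGFP. Of the surface genes, the difference was 1.47 for Spn, 4.58 for Pdpn and 2.58 for Asgr1. For matrix genes it was -1.78 for Lama3, 2.07 for Col3a1, 1.70 for Timp1, 3.94 for Mmp16 and 1.03 for Fn1. Among growth factor regulators it was 4.11 for Fst and 4.29 for Bmp7. For neuronal genes the difference came to 4.33 for Sncg, 3.67 for Sv2b, -2.43 for Gphn, 1.71 for Mapt, -2.99 for Basp1 and -3.60 for Cpe. For transport genes it came to -2.69 for Kcnj10 and 3.54 for Jph2. Among immune genes it was -4.67 for Il33, 2.33 for Ptgs1, 2.94 for Tnfsf13, 6.79 for Ccl2, 1.87 for Casp1, 1.67 for C1s and -1.43 for Tnfrsf21. For enzymes it amounted to 3.49 for Ass1, 3.07 for Gsta1, 5.96 for Cyp1b1 and 2.08 for Cyp26b1. For transcription factors the value was 2.38 for Foxs1, 1.38 for Rxrg, 1.41 for Klf4 and 5.25 for Rhox5. For the signalling and cytoskeletal genes the value was 3.55 for Gnrhr, -1.59 for Prkcb, -3.10 for Ppp2r2b, 1.44 for Fbxo2, -1.53 for Pls3 and 1.31 for Cnp. With a pseudocount of 1 in place of 8 the differences of Lama3, Col3a1, Timp1, Mapt, Prkcb, Rxrg and Tnfrsf21 were not called, and that of Lama3 was -0.55. With 32 that of Spn was not called. Lama3 signals rose 17.7-fold in C6SPGFP and 20.8-fold in C6 as ratios of mean signals, with slow C6SPGFP arrays below the pseudocount. Adjusted p-values ran from 3.64e-06 (Ccl2) to 0.0422 (Prkcb).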

How the results depend on the processing

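On the deposited scale the counts moved most. 15 probe sets were called, 15 higher and 0 lower, with 24 for the difference from C6 and 11 for list members, where the main values were 93, 71, 22, 255 and 44 (limma in each case, with 297 unadjusted p-values under 0.05). There 5 genes changed sign, Hbegf to 0.072, Pls3 to 0.19, Cnp to 0.27, Lipa to 0.26 and Ncam1 to 0.38, all below the median shift of 1.04. Leaving out 1 array at a time gave between 21 and 107 called probe sets, 18 to 76 higher, 3 to 31 lower, 123 to 273 for the difference and 12 to 46 list members. The lowest values came without C6SPGFP fast replicate 2. Without C6SPGFP slow replicate 1, slow replicate 2, fast replicate 1 and fast replicate 2 the counts of the difference were 139, 126, 131 and 123 and those of list members 26, 14, 19 and 12. The 3 other scalings gave 88 to 97 calls, other pseudocounts 82 and 94, other filters 71 and 72, no trend 78 and the C6SPGFP arrays fitted alone 100. An alternative chosen after seeing the data, without both C6 fast arrays, gave 83. Over the 72 genes, 998 of 1407 alternative values kept direction and call, 404 kept the direction only and 5 reversed.

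Titles give fast and slow arrays the same replicate numbers, but no label says that a number marks a shared culture, batch or day. Deviations of same-numbered arrays from their group means correlated with 0.104 in C6SPGFP and 0.266 in C6. With the replicate block 87 probe sets were called, 64 higher and 23 lower, with 235 for the difference and 40 list members. The block was not used to judge any gene. With 2 arrays a group and a median SE of 0.241, small changes could not be told from the spread, and 94 probe sets changed more than 2-fold without overlap and yet were not called.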
